A study of Rattus norvegicus with 12 samples.

Results

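The Bcl-2 family was followed through 10 genes in rat colon: Bik, Bax, Bak1, Bid, Bad, Bcl2l1, Bcl2l11, Bbc3, Mcl1 and Bcl2. The members were taken by gene name from the 42877 gene spots of each array, where 14 probes on 23 spots carried 1 of the 10 names. Of these genes 7 passed a filter on spot quality and entered a fit over 10451 genes. Bik was put on the list because of its own values on 2 arrays in earlier results of these data, so its levels and diet difference are given as a description with no test. The other members were chosen by family.

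The samples were labelled colonic epithelium of male Wistar rats weighing 180 to 200 g, which ate a high-protein diet (6 arrays) or a normal-protein diet (6 arrays) for 6 weeks. Total RNA was labelled with Cy3 and hybridised to whole rat genome arrays with 1 sample per array. Each of the 3 slides carried 2 arrays of each diet, side by side. By the scan origin in the file headers, high protein held positions 1 and 2 of slide 1 and positions 3 and 4 of slides 2 and 3. Within a slide, diet and position therefore cannot be told apart. The strain, sex and duration were shared by both diets, and the composition of the diets is not given in the sources used here. The labels do not say whether replicates came from separate animals, so p-values measure only the spread between these samples, which may be technical.

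The Bcl-2 family controls the mitochondrial route of apoptosis. Bax and Bak1 are the effectors that open pores in the outer mitochondrial membrane and release cytochrome c. Bcl2, Bcl2l1 (Bcl-xL) and Mcl1 hold the effectors in check. The BH3-only proteins, among them Bik, Bid, Bad, Bcl2l11 (Bim) and Bbc3 (PUMA), bind the protective members or the effectors and tip the balance towards death. In the gut, shedding and apoptosis of epithelial cells balance crypt proliferation. Whether transcripts of apoptosis genes differ with dietary protein is the question the diet comparison puts to this family.

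Each level is a log2 intensity after normalization, and each difference subtracts the normal-protein mean from the high-protein mean. They were computed from the mean pixel of each spot with a background offset of 50, which shrinks the fold of dim genes. Across arrays 42.67% to 55.86% of gene spots were flagged good by the scanner software. The 75th percentile of signal over local background ran from 236 to 387 intensity units on high protein and from 133 to 279 on normal protein. With 6 arrays per diet, their number sets the precision of the differences. Epithelial markers were well measured: all 11 listed were tested, with a mean level of 11.56 to 12.20 on high-protein arrays and 11.63 to 12.30 on normal-protein arrays. All 6 smooth muscle markers were also tested, at 11.14 to 12.33 on high protein and 11.85 to 12.50 on normal protein, and all 7 macrophage markers at 8.09 to 8.67 and 8.48 to 9.12 in the same order. Of the 8 B and plasma cell markers 1 was tested, and Cd79a and Ms4a1 were not tested. Smooth muscle and macrophage transcripts were thus measured beside epithelial ones, and most markers had a lower mean on high protein, where 51.5% of all genes had a higher one. The mean was lower for 7 of 7 macrophage markers (median difference -0.33), 6 of 6 smooth muscle markers (-0.15), 10 of 11 epithelial markers (-0.11), 4 of 4 tested neuron and glia markers (-0.14) and 4 of 6 fibroblast markers (-0.15), and 0 of these passed the adjusted limma threshold. With median scaling, 73.4% of all genes had a higher mean on high protein. The lower markers were then 6 of 7 macrophage, 3 of 6 smooth muscle, 5 of 11 epithelial, 3 of 4 neuron and glia and 3 of 6 fibroblast. With 75th percentile scaling, 42.6% of all genes had a higher mean. The lower markers were then 7 of 7, 5 of 6, 9 of 11, 4 of 4 and 4 of 6 in the same order. The mean of 2 distal colon position genes ran from 7.58 to 11.56 on high protein and from 6.60 to 11.39 on normal protein. These 2 genes went the other way, with a higher mean on high protein (median difference 0.83). So did 2 of 2 tested proximal colon position genes (0.78) and 2 of 2 tested erythroid markers (0.27), and 0 of them passed the threshold. The part of all these markers in the members' values was not tested. In such bulk samples fewer cells of a type and less RNA per cell cannot be told apart.

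Bik (BCL2-interacting killer), a BH3-only protein of the endoplasmic reticulum and mitochondria, is the member whose values stood apart. It was represented by a single spot per array. Its mean pixel was 10211 on high protein replicate 3 and 9107 on high protein replicate 5, the 2 high-protein arrays of slide 3. On the other 4 high-protein arrays it was 145, 136, 158 and 151 for replicates 1, 2, 4 and 6. On normal protein it was 137, 138, 106, 146, 166 and 102 for replicates 1 to 6. The diets overlapped on every array except those 2.

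The median pixel of the same spots gave a different size. It was 277 on high protein replicate 3 and 233 on high protein replicate 5, against 103 to 164 on the other 10 arrays. The mean was thus 36.9 and 39.1 times the median on these 2 arrays, and 0.98 to 1.04 times on the others. The SD among the pixels of the spot was 22318 and 21002 on the 2 arrays, and 30 to 54 on the others. Saturated pixels made up 10% and 8% of the spot on replicates 3 and 5, and 0% elsewhere. The software drew the spot with 120 pixels on replicate 3 and with 80 on every other array. The scanner software flagged the spot as not found on replicate 3 and left it without a good flag on replicate 5, while it flagged the spot good on the other 10 arrays. Among the 22 spots of the other 9 members the highest ratio of mean to median pixel was 1.14 and no pixel was saturated.

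**Figure D1:**
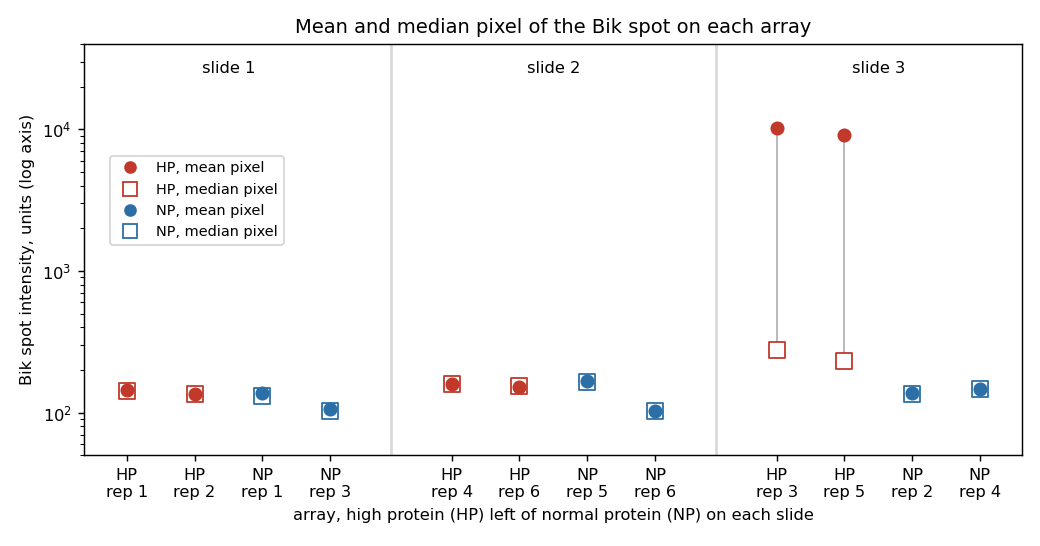
Mean pixel (filled circles) and median pixel (open squares) of the Bik spot, in intensity units on a log axis, for the 12 arrays by slide, with high protein (HP) left of normal protein (NP). Mean and median pixel coincide on 10 arrays between 102 and 166 units and part on high protein replicates 3 and 5, where the mean is 10211 and 9107 and the median 277 and 233.

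After normalization the mean pixel placed Bik at 13.24 and 13.00 on high protein replicates 3 and 5, against 7.08 to 7.49 on the 4 other high-protein arrays and 7.02 to 7.51 on normal protein. Those 2 arrays lay 5.84 above the mean of the other 10. With the median pixel they were at 8.06 and 8.01, against 7.06 to 7.51 on the other 10 arrays, and lay 0.75 above their mean. They were the 2 highest of 12 by either measure. In the authors' deposited table, matched to the array probes with its IDs moved by 1 row, Bik was at 7.72 and 7.64 on these arrays at 6.33 to 7.0 on the other high-protein arrays and at 6.31 to 6.93 on normal protein. The deposited table followed the median pixel more closely than the mean pixel over bright probes of all arrays.

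The diet difference of Bik therefore depended on the measure. It was 1.95 with the mean pixel, from 9.23 ± 3.02 on high protein and 7.27 ± 0.20 on normal protein (SD, n = 6 each). With the median pixel it was 0.26, from 7.54 ± 0.41 and 7.28 ± 0.18 (SD, n = 6 each) in the same order. Over spots flagged good it was 0.0077, with 7.28 ± 0.19 on high protein (SD, n = 4) and 7.27 ± 0.20 on normal protein (SD, n = 6). Within slides 1, 2 and 3 it was -0.05, 0.03 and 5.89 with the mean pixel. Only the arrays of slide 3 carried a difference beyond the spread of the others.

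Spots with a mean far above the median were found on every array. They were counted where the mean pixel lay over 1000 units above background and over 8 times as far above background as the median, a definition chosen after the Bik spot was seen. High-protein arrays had 15 to 43 of them and normal-protein arrays 8 to 31, out of 42877 gene spots. Slide 3 had 43 and 36 on high protein replicates 3 and 5, and 29 and 31 on normal protein replicates 2 and 4. Bik was the 1 spot so counted on both high-protein arrays of slide 3. On high protein replicate 3 the spot beside it, of Arl14ep, had a mean pixel of 2911 and a median of 100. On high protein replicate 5 the Arl14ep spot had a mean of 98 and a median of 97. A spot diagonal to Bik had a mean of 10710, a median of 6533 and 5% saturated pixels on replicate 3. On replicate 5 that spot had 6014, 6196 and 0% in the same order. The other adjoining spots had means close to their medians on both arrays. What these pixels hold was not tested.

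No other tested member had both of these arrays at the top. Both high-protein arrays of slide 3 lay above every other array for 2.14% of the genes tested by the mean pixel and 2.44% by the median pixel, and among the 7 members for Bik alone. By more than 1 log2 unit this held for 0.00957% of the genes, which is Bik itself. For Bak1 and Bad the 2 arrays were low: they ranked 12 and 11 of 12 from the top for Bak1, and 11 and 10 for Bad. The share of all genes with both arrays this low was not computed, so these ranks only describe. For Bax they ranked 6 and 4, for Bcl2l1 1 and 9, for Bbc3 7 and 2, and for Mcl1 11 and 7, for replicates 3 and 5 in that order. The counts over all genes were read from values that include the Bik arrays, so they describe and test nothing.

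Profiles like that of Bik were sought by the root mean square difference between centred profiles over the 12 arrays, in log2 units. The nearest genes were Rpf1 at 1.55, Scd at 1.57, Zfp830 at 1.60, Cdk9 at 1.63, Stard3nl at 1.63 and Peak1 at 1.63, where a flat profile would lie 2.18 from Bik. Scd, a desaturase that makes monounsaturated fatty acids, was at 8.81 and 10.05 on high protein replicates 3 and 5 and at most 8.44 elsewhere, and its median pixel gave 8.83 and 9.99. The other 5 were high on a single array. Rpf1, a ribosome assembly factor, was at 12.16 on replicate 3 and 7.25 on replicate 5, and its median pixel gave 7.26 and 7.23. Cdk9, a kinase of transcription elongation, was at 12.32 and 6.77 by the mean pixel and at 6.88 and 6.81 by the median pixel. Zfp830 was at 12.94 and 7.42 by the mean and 7.39 and 7.45 by the median. Stard3nl was at 7.94 and 12.02 by the mean pixel and 7.95 and 7.88 by the median, and Peak1 at 7.40 and 12.76 against 7.37 and 7.72. After Bik, the largest margins of both arrays over all others belonged to Dele1 at 0.48, Scd at 0.38, Klf11 at 0.36, Diras1 at 0.35, Vmac at 0.30 and Gal3st4 at 0.26, against 5.49 for Bik.

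The 6 other tested members showed no diet difference that passed the threshold. With limma, 0 of them had an adjusted p under 0.05 over all 10451 genes, where 0 genes passed (0% of the genes). At an unadjusted p under 0.05 there were 0 of these members and 6.64% of all genes. For none of the 7 tested members did the diets separate without overlap, which occurred for 0.287% of genes towards high protein and 0.0957% towards normal protein. The median difference over all genes was 0.0054.

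**Figure D2:**
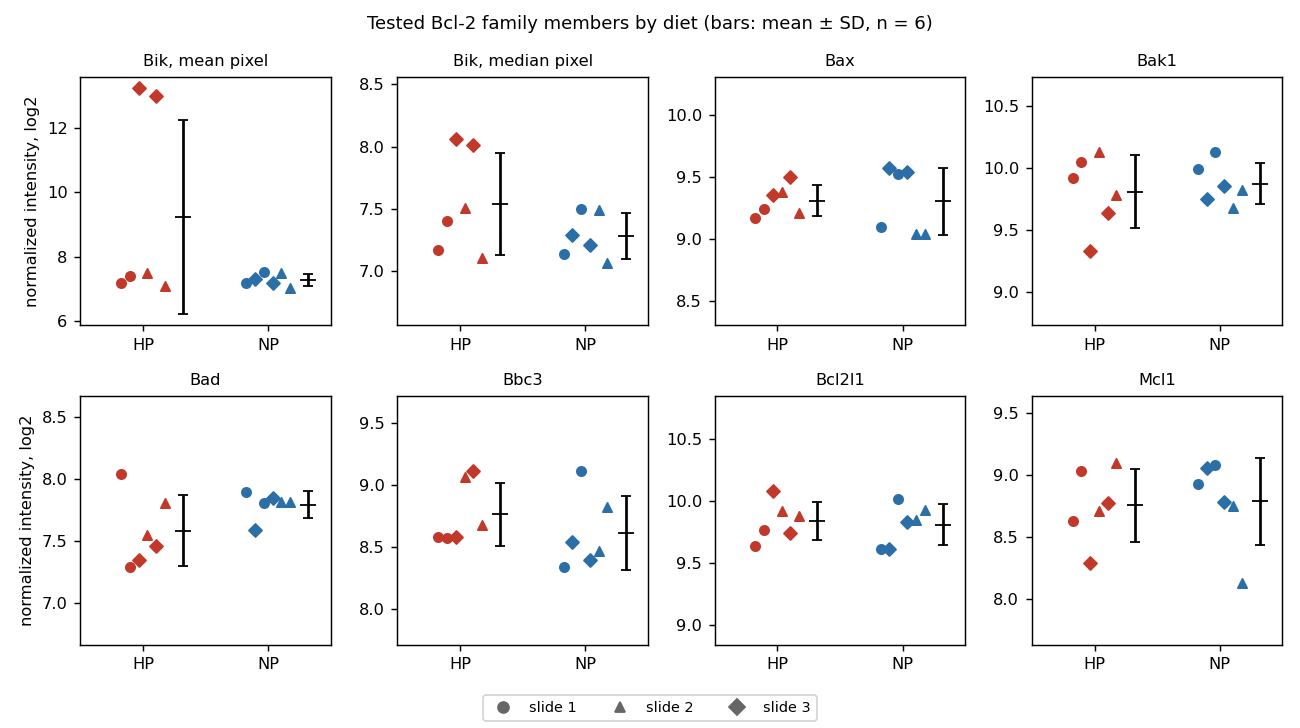
Normalized log2 intensity of each tested member on high-protein (HP, left) and normal-protein (NP, right) arrays, with markers by slide and bars for the mean ± SD (n = 6 each). The panels of Bik show 2 high-protein arrays of slide 3 near 13 by the mean pixel and near 8 by the median pixel, and the diets overlap for Bax, Bak1, Bad, Bbc3, Bcl2l1 and Mcl1.

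Both effectors were measured on all 12 arrays. Bax ran from 9.17 through a median of 9.30 to 9.50 on high protein, and from 9.04 through 9.31 to 9.57 on normal protein. Its levels overlapped almost completely, with a wider spread on normal protein. The difference was 0.0061 ± 0.12 (SE) with a limma 95% interval of -0.25 to 0.26 and an adjusted p of 0.99. Bak1 ran from 9.33 through 9.85 to 10.13 on high protein and from 9.68 through 9.84 to 10.13 on normal protein. The lowest array was high protein replicate 3. Bak1 differed by -0.06 ± 0.13 (SE), with an interval of -0.35 to 0.22 and an adjusted limma p of 0.91.

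A second probe of Bax, printed on 10 spots per array, gave the spread between spots of 1 array. The SD among its spots within an array was 0.18 to 0.45, with a median of 0.28, in log2 signal over background without offset or normalization. The averages over its spots had an SD of 0.09 over the 12 arrays after the offset and normalization. The offset shrinks the spread of dim spots, so these SDs are on different scales and do not measure the effect of averaging. Its diet difference was -0.04, beside 0.0061 for the brighter single-spot probe. Members measured by 1 spot lacked this averaging.

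Of the BH3-only members besides Bik, Bad and Bbc3 were tested. Bad, which in its unphosphorylated state binds Bcl-xL, ran from 7.29 through 7.50 to 8.04 on high protein and from 7.58 through 7.81 to 7.89 on normal protein. Its signal was dim, 92 to 253 units above background on high protein and 89 to 199 on normal protein, and it was flagged good on 11 arrays. On high protein 4 of 6 arrays lay below the normal-protein mean. Bad differed by -0.21 ± 0.12 (SE), with an interval of -0.47 to 0.05 and an adjusted limma p of 0.73. Within slides 1, 2 and 3 the Bad difference was -0.18, -0.13 and -0.31.

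Bbc3, a p53-induced killer protein, ran from 8.57 through 8.63 to 9.11 on high protein and from 8.34 through 8.51 to 9.11 on normal protein. The highest arrays were high protein replicate 5 and normal protein replicate 3, both at 9.11. On the raw scale its signal over background was 310 to 553 units on high protein and 266 to 346 on normal protein, before the arrays' overall brightness was removed. Bbc3 differed by 0.15 ± 0.15 (SE) with an adjusted limma p of 0.82, and by -0.15, 0.22 and 0.38 within slides 1, 2 and 3. The interval of -0.17 to 0.47 allowed Bbc3 to be up to 1.39-fold higher on high protein on this scale. For Bad the interval allowed up to 1.39-fold lower. The offset shrinks the dimmer Bad more, so these limits are not equal in transcript. With plain background subtraction Bad differed by -0.30 ± 0.17 (SE) and Bbc3 by 0.17 ± 0.17 (SE).

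Bid, the caspase-8 substrate that links death receptors to mitochondria, was flagged good on 0 of 12 arrays. Its signal was 14 to 30 units above background on high protein and 14 to 24 on normal protein. Bcl2l11, a killer of lymphocytes and other cells after loss of survival signals, was likewise flagged good on 0 arrays, at 2 to 19 units on high protein and 2 to 14 on normal protein. Neither entered the fit, and differences at these signals were not detectable.

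Among the protective members, Bcl2l1 was well measured. Its brightest probe ran from 9.64 through 9.83 to 10.08 on high protein and from 9.61 through 9.84 to 10.02 on normal protein. The difference was 0.03 ± 0.10 (SE) with an interval of -0.18 to 0.24 and an adjusted limma p of 0.95. A second probe of the same transcript variant, at 349 to 742 units on high protein and 320 to 537 on normal protein, differed by -0.08. The 2 probes disagreed in sign, and both were within the interval. The other 2 probes of the gene, designed on different variants, were flagged good on 1 and 0 arrays.

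Mcl1, a short-lived guardian needed for survival of many epithelial and blood cells, varied most among the members other than Bik, with an SD of 0.31 over the 12 arrays. It ran from 8.29 through 8.74 to 9.10 on high protein and from 8.13 through 8.85 to 9.08 on normal protein. The lowest arrays were high protein replicate 3 and normal protein replicate 6. Mcl1 differed by -0.03 ± 0.17 (SE), with an interval of -0.40 to 0.34 and an adjusted limma p of 0.97. It was -0.17, 0.46 and -0.38 within slides 1, 2 and 3.

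Bcl2, the founding member, was flagged good on 1 of 12 arrays, a high-protein array. Its signal was 27 to 42 units above background on high protein, with a median of 33.5, and 21 to 29 on normal protein, with a median of 26. These are raw values that carry each array's brightness, and no normalized difference is given.

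**Figure D3:**
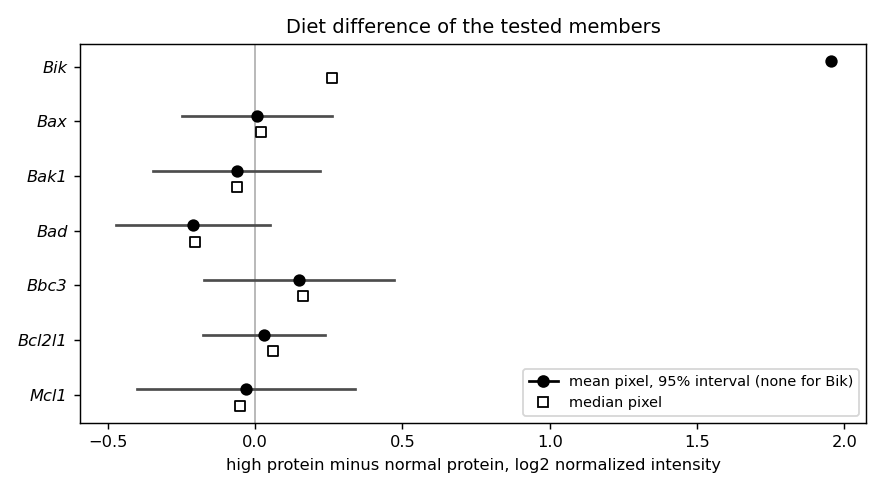
Diet difference (high protein minus normal protein, log2 normalized intensity) of the 7 tested members, with filled circles for the mean pixel, lines for limma's 95% interval and open squares for the median pixel. Bik, shown without an interval, lies at 1.95 by the mean pixel and 0.26 by the median pixel, and every interval of the other 6 members spans 0.

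Bik weighed heavily on any average over the family. The mean difference of the 7 tested members was 0.26 with the mean pixel and 0.03 with the median pixel. Without Bik it was -0.02 and -0.01. For the other 6 members the choice of pixel measure moved a difference by at most 0.03, and it moved Bik by 1.69.

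Members other than Bik were compared in pairs over the 12 arrays to see whether effectors, killers and guardians vary together. None of the 15 pairs passed after Benjamini-Hochberg adjustment (lowest adjusted permutation p = 0.71 for Pearson's r), and 0 had an unadjusted p under 0.05. The strongest relation was that of Bak1 and Mcl1, a guardian that binds Bak1, with r = 0.45 (permutation p = 0.14) and rho = 0.27 (permutation p = 0.39). It was 0.57 within high protein and 0.34 within normal protein. Without the 2 arrays of most extreme Bak1 it was 0.03, so its size depended on those arrays. Bcl2l1 and Bbc3 had r = 0.42 (permutation p = 0.18) and rho = 0.51 (permutation p = 0.093). Their r was -0.04 within high protein, 0.76 within normal protein and 0.47 without the 2 arrays of most extreme Bcl2l1. Bax and Bak1, the paired effectors, had r = -0.0048 (permutation p = 0.99). With 4 arrays each, slides held too few samples for a value of their own. The pairs share arrays and their normalization. Pairs with Bik were left out because its arrays fall into separate clusters.

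Beyond the members, 5 lists of related genes held 81 names, of which 54 were tested. With limma 0 of the 54 passed over all genes, 26 had a higher and 28 a lower mean on high protein, beside the 51.5% of all genes with a higher one. At an unadjusted p under 0.05, 1 was higher and 2 were lower on high protein, where the shares over all genes were 3.66% and 2.98%. These shares turned with the scaling. With median scaling the medians of the 5 lists were 0.08 to 0.15, beside 0.10 for all genes, and 73.4% of all genes had a higher mean on high protein.

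Of 13 further Bcl-2 relatives 6 were tested, 3 higher and 3 lower, with a median difference of -0.04. Bok, an effector related to Bax and Bak1, ran from 10.71 through 11.16 to 12.13 on high protein and from 11.34 through 11.82 to 12.52 on normal protein. The diets overlapped, and Bok differed by -0.57 ± 0.26 (SE; adjusted p = 0.73, limma), the largest difference among the family members tested apart from Bik. Bcl2l14 was at 6.65 ± 0.09 on high protein and 6.52 ± 0.11 on normal protein (SD, n = 6 each). Its adjusted limma p was 0.73, and its difference of 0.13 became 0.04 with spots not flagged good left out. Bcl2l2 (Bcl-w), a protective member, was at 7.97 ± 0.20 on high protein and 7.82 ± 0.08 on normal protein (SD, n = 6 each). The BH3-only genes Pmaip1, Bmf and Hrk did not enter the fit.

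Among mitochondrial apoptosis factors and caspases 20 of 22 were tested, 13 with a higher and 7 with a lower mean on high protein, and the median was 0.02. Cycs, the cytochrome c that Bax and Bak1 release and that also carries electrons in respiration, ran from 11.63 through 11.85 to 12.12 on high protein and from 11.99 through 12.18 to 12.23 on normal protein, a difference of -0.25 ± 0.09 (SE; adjusted p = 0.70, limma). With median scaling the Cycs difference was -0.08 ± 0.14 (SE). Dffb, a nuclease that cuts DNA in dying cells, was at 6.53 ± 0.13 on high protein and 6.38 ± 0.05 on normal protein (SD, n = 6 each). The adjusted limma p of Dffb was 0.73. Casp9 and Xiap did not pass the filter.

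Death receptor genes gave 8 tested of 14, 3 higher and 5 lower, with a median of -0.03. Tnfrsf1b, a TNF receptor, differed by -0.13 ± 0.10 (SE), Ripk1, a kinase of the receptor complex, by 0.08 ± 0.09 (SE), and Dap3 by -0.08 ± 0.09 (SE). Fas, Faslg, Fadd, Tnf, Tnfsf10 and Tnfrsf10b did not pass the filter. The p53 list had 11 tested of 16, 4 higher and 7 lower, with a median of -0.02. Zmat3 ran from 7.97 through 8.28 to 8.48 on high protein and from 7.96 through 8.07 to 8.19 on normal protein, a difference of 0.20 ± 0.09 (SE). Phlda3, a p53-induced inhibitor of Akt, differed by -0.41 ± 0.21 (SE) and by -0.20 without normal protein replicate 6. Aen, a p53-induced nuclease, differed by -0.19 ± 0.14 (SE). The adjusted limma p of these 6 genes ran from 0.7258 to 0.8456.

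Upstream regulators of the family gave 9 tested of 16, 3 higher and 6 lower, with a median of -0.02. Ywhaz, a 14-3-3 protein of the kind that holds phosphorylated Bad in the cytosol, was at 9.93 ± 0.13 on high protein and 10.16 ± 0.25 on normal protein (SD, n = 6 each). Stat3, an activator of Bcl2l1 and Mcl1 transcription, was at 9.38 ± 0.19 and 9.18 ± 0.16 (SD, n = 6 each) in the same order. Rela, the NF-kB subunit p65, differed by -0.08 ± 0.08 (SE). All 3 overlapped between diets, and 0 of them passed in limma.

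**Figure D4:**
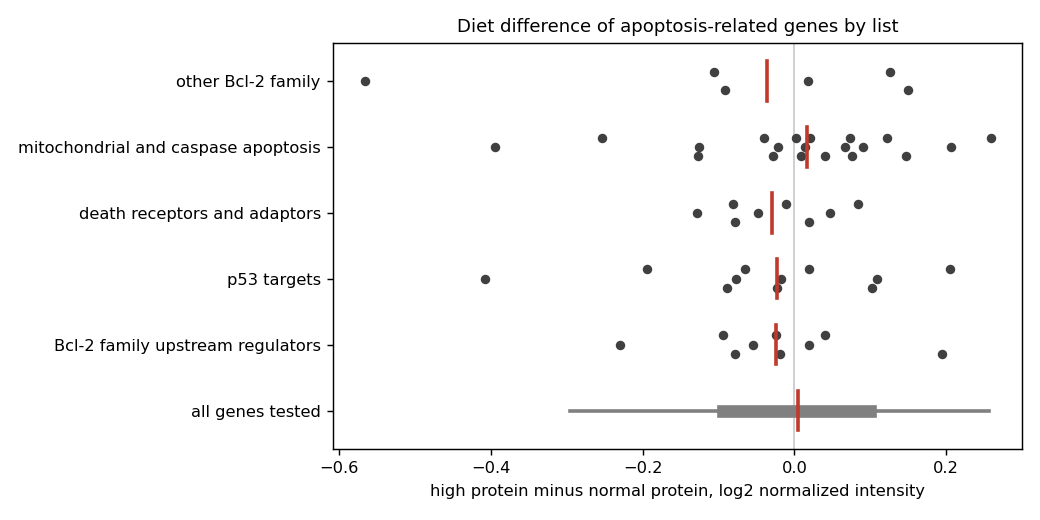
Diet difference (high protein minus normal protein, log2 normalized intensity) of each tested gene in 5 apoptosis-related lists, with a red line at the list's median. The bottom row gives all genes tested, with a thin bar for the 5th to 95th percentile and a thick bar for the quartiles; the medians of the lists lie between -0.04 and 0.02, beside 0.0054 for all genes.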

How the data were processed

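The authors deposited 1 scanner file per array. Per the file headers, GenePix Pro 6.1.0.4 measured each spot at 532 nm and wrote linear intensity with no normalization (mean pixel, median pixel, pixel SD, local background), the percent of saturated pixels, the number of pixels in the spot and a flag score (100 good, 0 unflagged, -50 not found). The authors' deposited table holds log2 values. Per the submitters' processing notes RMA was used, with no role given, and its centring is unknown, with column medians of 4.36 to 4.45. Against the scanner's median pixel over bright probes its values had r of -0.0084 to 0.013 with the IDs as given, and 0.994 to 0.9996 with the IDs moved by 1 row. With the mean pixel and moved IDs r was 0.941 to 0.985.

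Background was corrected with normexp (offset 50, mean pixel, median local background) and arrays were quantile normalized with limma 3.58.1 in R 4.3.3. Spots of a probe were averaged. The filter kept probes that had 0.5 or more of their spots flagged good, on 6 or more of 12 arrays. The brightest tested probe stood for a gene. Symbols came from RefSeq (GRCr8) for 18355 of 30367 probes, otherwise from the array. Diets were compared with lmFit and eBayes, Benjamini-Hochberg adjustment and a threshold of 0.05. Pairs of members were tested with 100000 permutations, two-sided. The fit was also run on simulated data with known changes, and the share of them that it found is not given here. The highest correlation between arrays was 0.985, and no pair held identical values. The p-values cover the spread between arrays, and scanner intensities give no counting depth.

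The members, the lists and the tests were chosen with earlier results of these data known. All members were named, with the up to 3 genes of smallest p in each list and up to 6 genes nearest to Bik by profile and by margin. The values of 1 gene that this rule names are not reported here. Median differences and counts describe lists, with no set test.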

Additional observations from a re-analysis of the deposited data

Results flagged for a closer look

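Within a diet, 44 groups of 6 arrays were checked for an array far from the rest, over the tested members and the list genes named. In all, 4 were found where chance flags about 1 in 20 groups. The check takes the gap between the most extreme array and the next over the range, so 2 high arrays hide each other. Bik on high protein, with 2 such arrays, was therefore not flagged. Bad was at 7.58 on normal protein replicate 2, against 7.81 to 7.89 on the other normal-protein arrays. Mcl1 was at 8.13 on normal protein replicate 6 and at 8.75 to 9.08 on the others. Bcl2l2 was at 7.67 on normal protein replicate 1 and at 7.82 to 7.88 on the others. Phlda3 was at 7.96 on normal protein replicate 6 and at 6.54 to 7.01 on the others.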

How the results depend on the processing

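Under 25 other settings, 0 genes passed over all genes, among the members other than Bik and among the list genes, and 0 member pairs passed wherever pairs were recomputed. The margin of Bik on both high-protein arrays of slide 3 above all others, 5.49, became 6.01 with plain background subtraction, 5.79 with an offset of 16, 5.70 with median scaling, 0.51 with the median pixel and 0.64 in the authors' deposited table. The Bik diet difference of 1.95 became 0.26 with the median pixel and 0.37 in that table. Leaving out spots not flagged good, or both high-protein arrays of slide 3, gave 0.0077. For Bik these settings drop the same 2 values, so they are not separate checks, and both were chosen after seeing the data. With single arrays left out the Bik difference ran from 1.15 without high protein replicate 3 to 2.38. It was 1.20 without high protein replicate 5. Where all 12 arrays had to be flagged good, Bik and Bad were not kept, which left 5 members.

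Bad stayed below 0 (-0.30 to -0.12) and Bbc3 above 0 (0.08 to 0.31) under every setting that gave a value. With median scaling, Bak1 turned to 0.10, Mcl1 to 0.12, Dap3 to 0.0095 and Rela to 0.057. With 75th percentile scaling Bcl2l14 turned to -0.0093 and Dffb to -0.0032. With the mean of a gene's probes Bax turned to -0.015 and Bcl2l1 to -0.024. Without both high-protein arrays of slide 3, Bax turned to -0.053, Bak1 to 0.10, Bcl2l1 to -0.0074, Mcl1 to 0.082 and Dap3 to 0.011. With single arrays left out Bax ran from -0.047 to 0.060, Bak1 from -0.13 to 0.032, Bcl2l1 from -0.019 to 0.071 and Mcl1 from -0.16 to 0.063. The causes were not tested. At an unadjusted p under 0.05, 383 genes were higher and 311 lower on high protein, against 1128 and 78 with median scaling, 318 and 481 with 75th percentile scaling and, over 21914 genes, 716 and 543 with no filter.

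The labels do not say that replicate numbers pair arrays. Same-numbered arrays had deviations with r of 0.40, 0.32, -0.10, 0.24, -0.03 and -0.11 for numbers 1 to 6, so 3 of 6 were over 0.1, and 5 of 12 arrays correlated best with their own number. These correlations do not settle whether the numbers mark pairs, as no level for unrelated arrays was computed. Arrays were compared unpaired because the labels name no pairs. With the replicate block 0 genes passed (limma, smallest adjusted p = 0.34), and with slide as a block 0 (limma, smallest adjusted p = 0.50). Dim signal limits Bid, Bcl2l11 and Bcl2.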

Other observations

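The choice between mean and median pixel moved the diet difference of 52 of the 10451 tested genes by over 0.5 log2 units, while the median move over all genes was 0.01. Bik moved most, by 1.69. The next, chosen after their values were seen, were Dcun1d4, a gene of the cullin neddylation pathway, at 0.94 by the mean pixel and -0.09 by the median pixel, Lcor, a nuclear receptor corepressor, at 1.19 and 0.19, and Kcnj5, a potassium channel, at 0.79 and -0.18. Zfp455 was at -0.79 and 0.16, and St5 at 1.06 and 0.13. None of these genes passed the threshold with either measure, as 0 genes did.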
